A study of Homo sapiens with 5 samples.

Results

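NRF2, the transcription factor of the oxidative and electrophile stress response encoded by NFE2L2, was examined at its own gene and at the genes of 9 of its regulators, partners and relatives in chromatin profiles of SNU638 cells. The 10 genes were NFE2L2, KEAP1, CUL3, RBX1, MAFG, MAFF, MAFK, BACH1, SQSTM1 and NFE2L1. They were chosen by what their products do, out of 19689 genes with a protein-coding transcript in GENCODE release 44. Earlier results of these data were known when the choice was made. Every peak that touched one of these genes or the 10 kb to either side of it was taken, which gave 83 of the 83512 peaks in all lists. SNU638 is an established human gastric cancer line, here obtained from KCLB and grown with 10% fetal bovine serum, and the labels name no treatment. The medium is Dulbecco modified Eagle medium in the labels and RPMI in the study's methods. Its chromatin was profiled by CUT&Tag, in which a transposase fused to protein A is brought by an antibody to its target and cuts sequencing adapters into the DNA around it. There were 5 libraries: BRG1 was profiled with Proteintech 21634-1-AP, ACTL6A with Abcam ab3882 and NRF2 with Cell Signaling Technology 12721s, and 2 control libraries, called IgG 1 and IgG 2 here, were made with IgG from Millipore (12-370). Each antibody had 1 library from 1 cell line, so differences between lists have no replicate error, and no test between them was run.

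In unstressed cells NRF2 is held by KEAP1, an adaptor of the CUL3 and RBX1 ubiquitin ligase, and is degraded by the proteasome. When cysteines of KEAP1 are modified, NRF2 escapes, pairs with a small MAF protein (MAFG, MAFF or MAFK) and binds the antioxidant response element, the ARE, in genes of glutathione synthesis and detoxification. BACH1 competes for the same elements as a haem-regulated repressor, SQSTM1 (p62) takes KEAP1 into autophagy, and NFE2L1 (NRF1) is a related factor that drives proteasome genes. ACTL6A (BAF53A) is an actin-like subunit and BRG1 the ATPase of the SWI/SNF chromatin remodelling complexes.

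The lists held 23917 peaks for ACTL6A, 48793 for BRG1, 9045 for NRF2, 11 for IgG 1 and 1746 for IgG 2. The files hold no reads, so depth is described by the number of fragments at a peak's summit, recovered with the number the peak caller expected there from its fold enrichment and p-value. Median summit counts were 6 fragments in the ACTL6A list, 10 in the BRG1 list and 17 in the NRF2 list. Peaks are placed by their rank on the caller's −log10 q-value within their own list, and fold enrichments and q-values are not compared between lists. A gene without a peak in a list is a gene at which the caller made no call at this depth, not one shown to be unbound.

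BRG1 peaks lay at a transcription start of all 10 genes, NRF2 peaks at 6 and ACTL6A peaks at 4. A peak counted as at a start when it came within 1 kb of the first base of any protein-coding transcript of the gene. Over all 19689 genes the shares with such a peak were 63.5% for BRG1, 28.1% for NRF2 and 38.5% for ACTL6A. The 10 genes fell into 3 groups. NFE2L2, CUL3, RBX1 and NFE2L1 had all 3 antibodies at a start, which 22.1% of all genes did. KEAP1 and SQSTM1 had BRG1 and NRF2 without ACTL6A, a combination found at 5.6% of all genes. Their NRF2 peaks had −log10 q-values of 4.45 and 4.96, so with a minimum of 5 neither kept an NRF2 call at a start and this group was empty. MAFG, MAFF, MAFK and BACH1 had BRG1 alone, as did 21.1% of all genes. At this distance the genes with BRG1 alone were those of the transcriptional partners and the competing repressor. Those with all 3 were the genes of the CUL3 ligase core and of the 2 related factors. Both groups changed with the distance. Within 3 kb MAFK also had ACTL6A and NRF2, and BACH1 also had ACTL6A. Within 250 bp NFE2L2 had no ACTL6A and MAFK no BRG1. MAFK also had no BRG1 at a start with a −log10 q minimum of 5, since its BRG1 start peak had 4.26.

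Counted over the gene and its 10 kb flanks, the genes held 57 BRG1 peaks, 16 ACTL6A peaks and 10 NRF2 peaks. BRG1 peaks touched all 10 of these windows, and 82.7% of the windows of all genes. ACTL6A peaks touched 8, all but those of MAFG and SQSTM1, against 66.9% of all genes. NRF2 peaks touched 8, all but those of MAFG and BACH1, against 41.1%. The windows were of very unequal length, from 29.5 kb at MAFG to 457 kb at BACH1. Neither IgG list had a peak in any of them, where IgG 1 reached 0.0356% and IgG 2 1.67% of all genes, and none of the 83 peaks shared a base with an IgG peak. Of the 57 BRG1 peaks 26 were at a start of the gene itself, 5 only at the start of another gene and 26 away from any start. Of the 16 ACTL6A peaks 5 were at a start and 11 away, and of the 10 NRF2 peaks 6 were at a start of the gene, 1 at that of another and 3 away.

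**Figure D1:**
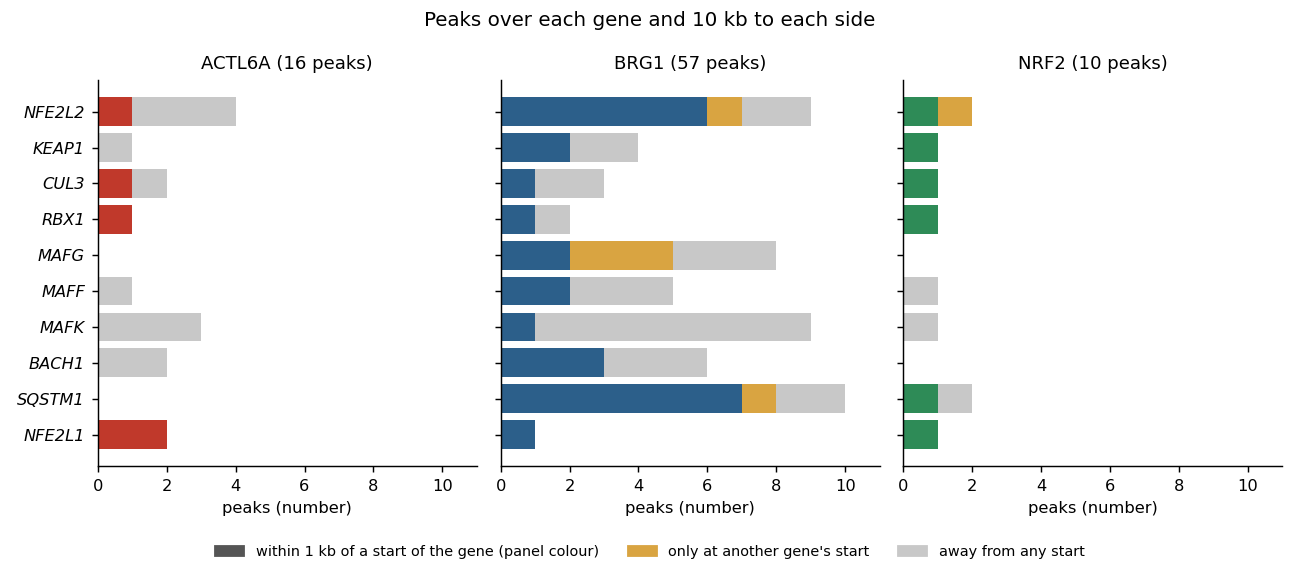
Number of ACTL6A, BRG1 and NRF2 peaks over each of the 10 genes and 10 kb to each side, with bars divided into peaks within 1 kb of a start of the gene, peaks only at another gene's start, and peaks away from any start. BRG1 has a peak at a start of every gene, while the ACTL6A bars of KEAP1, MAFF, MAFK and BACH1 hold only peaks away from a start.

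NFE2L2 had a cluster of peaks at the start of its MANE Select transcript, the single transcript per gene that Ensembl and RefSeq share. The gene lies on chr2:177218667-177392756 (GRCh38, minus strand) and is annotated over 174 kb, with 37 protein-coding starts, because some transcripts begin far upstream. A BRG1 peak with its summit 952 bp downstream of the MANE start, in intron 1, had 30 fragments where 2.02 were expected and ranked 5743 in its list. A second BRG1 peak, 141 bp downstream in the 5′ untranslated exon 1, had 29 against 2.03, and the third, 562 bp upstream, had 16 against 2.02. The 3 counts have exact 95% Poisson intervals of 20.2 to 42.8, 19.4 to 41.6 and 9.15 to 26, which overlap. These intervals cover counting error only, as do all others here, and summits are chosen as the highest point of a peak.

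The ACTL6A and NRF2 peaks at this start stood on opposite sides of it. The NRF2 peak had its summit 996 bp downstream, in intron 1 and 44 bp from the downstream BRG1 summit, with 19 fragments against 3 and rank 3406 of 9045. These NRF2 and BRG1 summits were also 69 bp and 25 bp downstream of another protein-coding start of the gene. The ACTL6A peak had its summit 577 bp upstream, 15 bp from the upstream BRG1 summit, with 10 fragments against 0.584 and rank 4669 of 23917. These peaks did not share a base, so NFE2L2 was the gene among the 4 with all 3 antibodies at which the 3 peaks had no base in common. It also had no ACTL6A peak within 250 bp of a start. The whole ACTL6A peak is given because it is the only call of that antibody at a start of the gene that encodes NRF2. It spans chr2:177265255-177265529 (275 bp) and is written on the minus strand, as the gene reads, with the 16 bases from the ACTL6A to the BRG1 summit in capitals.
NFE2L2 ACTL6A peak: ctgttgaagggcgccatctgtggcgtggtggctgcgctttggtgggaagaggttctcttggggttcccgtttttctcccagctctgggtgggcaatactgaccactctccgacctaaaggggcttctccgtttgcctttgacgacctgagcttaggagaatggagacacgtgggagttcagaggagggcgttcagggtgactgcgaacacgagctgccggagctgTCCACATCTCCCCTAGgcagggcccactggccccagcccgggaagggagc

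The NRF2 peak at NFE2L2 held 2 copies of the ARE core, written TGACNNNGC with N for any base and searched on both strands. They lay 790 bp and 650 bp downstream of the MANE start, both on the plus strand, 206 bp and 346 bp from the NRF2 summit, and both were also inside the downstream BRG1 peak. They are shown, with 10 bases to each side and the core in capitals, because they are the matches within the NRF2 peak of the gene for NRF2 itself. The ACTL6A peak held no match.
NFE2L2 at chr2:177263923-177263951: gagagatggaTGACTTCGCaaagccgcgc
NFE2L2 at chr2:177264063-177264091: agcggccccgTGACTAGGCacatttttgc

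Farther upstream, some of the distal starts of NFE2L2 had a BRG1 peak, and none had an ACTL6A or NRF2 peak. A BRG1 peak with 9 fragments against 0.378 had its summit 73561 bp upstream of the MANE start and 346 bp downstream of another protein-coding start of the gene. A pair of BRG1 peaks with 8 and 9 fragments lay 127819 bp and 128371 bp upstream, at the first start of NFE2L2 and also at that of AGPS, an enzyme of ether lipid synthesis read from the other strand. The remaining 3 ACTL6A peaks of NFE2L2 had 4 to 6 fragments, lay 27386 to 86422 bp upstream inside the annotated gene and overlapped no BRG1 peak. Beyond the 3′ end, BRG1 (20 fragments against 1.34) and NRF2 (21 against 2.48, rank 2032) shared a peak at the start of HNRNPA3, which encodes an RNA-binding protein. This second NRF2 peak of the NFE2L2 window was therefore another gene's start peak, and it ranked above the one at NFE2L2 itself.

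KEAP1, the cysteine sensor that binds NRF2, had NRF2 and BRG1 at its start but no ACTL6A there. The gene lies on chr19:10486125-10503558 (minus strand). The higher BRG1 peak had its summit 472 bp downstream of the MANE start in intron 1, with 21 fragments against 2.04 (rank 12118), and a smaller one 1075 bp downstream had 12 against 2.02. The NRF2 peak, 974 bp wide, covered the smaller and part of the higher, with its summit 862 bp downstream, 17 fragments against 3.32 and rank 5216 of 9045, the lowest place of any NRF2 start peak among the 10 genes. The single ACTL6A peak of the window, with 6 fragments against 0.307, lay beyond the 3′ end of the gene, 24203 bp from the start, inside a BRG1 peak with 12 fragments. The NRF2 and higher BRG1 peaks shared 2 ARE cores, 558 bp and 535 bp downstream of the MANE start, on the plus and minus strand. They are shown because they are the only cores in the peaks of the NRF2 repressor.
KEAP1 at chr19:10502784-10502812: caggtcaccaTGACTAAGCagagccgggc
KEAP1 at chr19:10502807-10502835: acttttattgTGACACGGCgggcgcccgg

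CUL3, the cullin scaffold on which KEAP1 presents NRF2, had all 3 antibodies within the same stretch just upstream of its start. The gene lies on chr2:224470150-224585397 (minus strand) over 115 kb. The BRG1 peak had 52 fragments against 2.5 (rank 1316), with its summit 218 bp upstream of the MANE start, the NRF2 peak 23 against 2.72 (rank 1769), with its summit 258 bp upstream, and the ACTL6A peak 20 against 1.08 (rank 1257), with its summit 480 bp upstream. Both smaller peaks lay wholly inside the BRG1 peak. A second site with ACTL6A (4 fragments against 0.307) and BRG1 (14 against 0.448) but no NRF2 lay in intron 13, 99796 bp downstream of the start, and held an ARE core 5 bp from the ACTL6A summit. It is shown, on the plus strand with the core in capitals, because it is the only core in an ACTL6A peak away from a start. A TGAGTCA follows it in the same window.
CUL3 at chr2:224485528-224485616: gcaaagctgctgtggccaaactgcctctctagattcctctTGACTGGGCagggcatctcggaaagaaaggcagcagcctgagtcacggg

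RBX1, the RING subunit of the same ligase, had 1 protein-coding start and all 3 antibodies over it. The gene lies on chr22:40951347-40973309 (plus strand). The ACTL6A peak had 24 fragments against 1.02 (rank 631), the BRG1 peak 41 against 2.59 (rank 3138) and the NRF2 peak 36 against 3.87 (rank 754). The BRG1 and NRF2 summits lay 112 bp and 77 bp upstream of the start, 35 bp apart, while the ACTL6A summit lay 280 bp downstream in intron 1. All 3 peaks covered 1 ARE core, 120 bp upstream of the start on the minus strand, 8 bp from the BRG1 summit and 43 bp from the NRF2 summit. It is the only core at the 10 genes that lay in peaks of all 3 antibodies and the only one within 100 bp of an NRF2 summit.
RBX1 at chr22:40951214-40951302: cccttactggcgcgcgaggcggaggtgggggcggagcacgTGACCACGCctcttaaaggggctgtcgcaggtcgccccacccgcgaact

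NFE2L1, whose product is held in the endoplasmic reticulum and released to raise proteasome genes, had the highest start peak of the 10 genes in every list by rank and fragments. By fold enrichment it came behind CUL3 for BRG1 (12 against 15.2) and behind RBX1 for ACTL6A (10.4 against 12.4) and NRF2 (6.54 against 7.6). NFE2L1 lies on chr17:48048329-48061545 (plus strand). Its BRG1 peak had 85 fragments against 6.19 (rank 609 of 48793), with an interval of 67.9 to 105. Its NRF2 peak had 42 against 5.57 (rank 753 of 9045) and its higher ACTL6A peak 30 against 1.97 (rank 616 of 23917). The ACTL6A and BRG1 summits lay 206 bp and 229 bp upstream of the MANE start, and the NRF2 summit 96 bp downstream in the 5′ untranslated exon 1. A second ACTL6A peak, with 10 fragments against 2.04, lay 449 bp downstream inside the same BRG1 peak. No peak of this gene was away from its start, and no peak of it held an ARE core.

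SQSTM1, an autophagy receptor that binds KEAP1 and whose gene is a known target of NRF2, had BRG1 and NRF2 at its start and no ACTL6A peak anywhere in its window. It lies on chr5:179806398-179838078 (plus strand). Its NRF2 peak was the widest of the 10 genes at 1590 bp, with 30 fragments against 8.77, rank 4662, and its summit 1424 bp upstream of the MANE start and 603 bp downstream of another start. It covered a BRG1 peak with its summit 1260 bp upstream (53 fragments against 7.79, rank 5300) and another 293 bp upstream (32 against 7.86). The expected numbers were high here: they ran from 1.96 to 7.95 over the 10 BRG1 peaks of the window, where the median of the whole BRG1 list was 0.854. Of these 10, 7 were at a start of SQSTM1, and 3 of the 7 were shared with the start of MGAT4B, an N-glycan branching enzyme. The NRF2 peak held 2 copies of the ARE core, 1316 bp and 348 bp upstream of the MANE start, 1 in each BRG1 peak, 56 bp and 55 bp from the BRG1 summit. Both read TGACTCAGC on the minus strand. They are shown because they are the only 2 cores at the 10 genes with that sequence, which also contains TGACTCA, the form bound by AP-1 factors.
SQSTM1 at chr5:179819545-179819633: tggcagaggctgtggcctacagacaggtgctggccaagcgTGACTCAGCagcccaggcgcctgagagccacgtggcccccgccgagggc
SQSTM1 at chr5:179820513-179820601: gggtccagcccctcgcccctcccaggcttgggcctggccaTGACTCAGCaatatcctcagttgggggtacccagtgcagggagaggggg

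**Figure D2:**
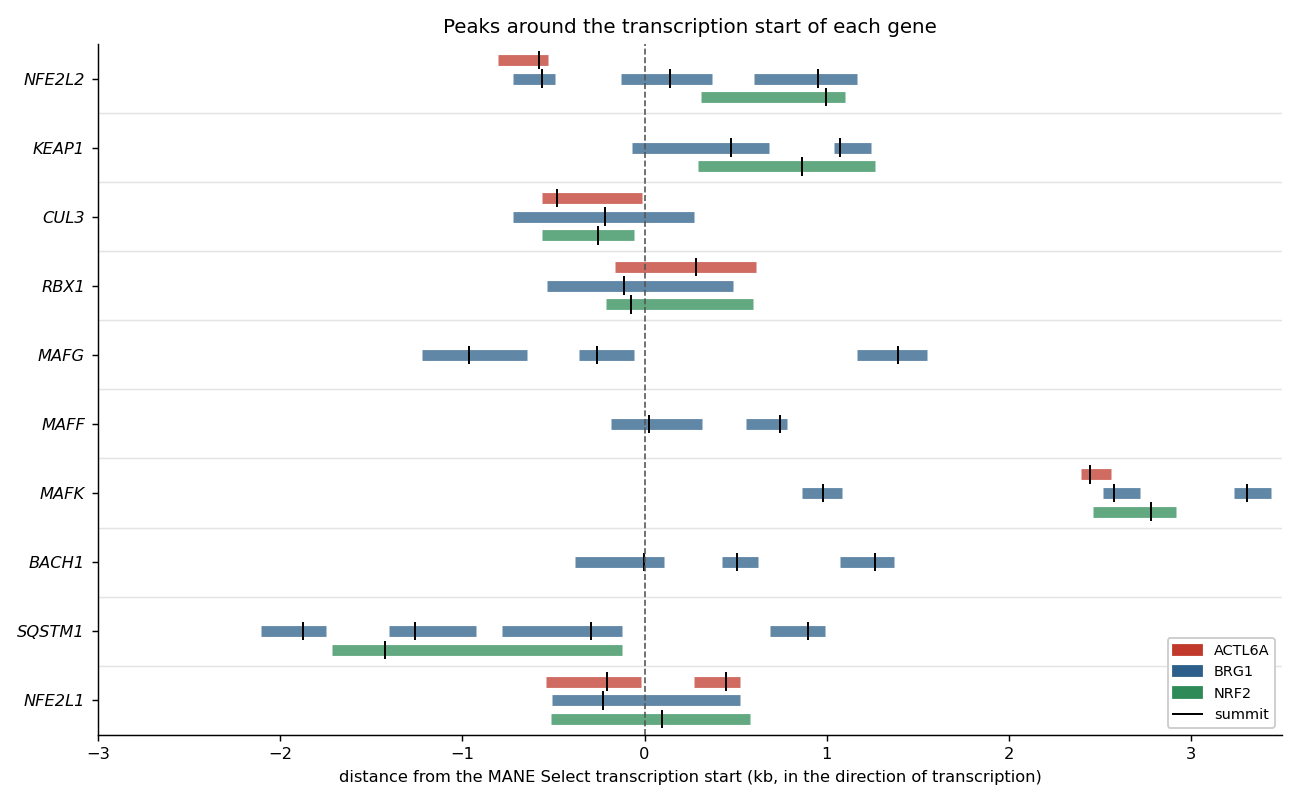
Peaks of ACTL6A, BRG1 and NRF2 around the MANE Select transcription start of each gene, in kb in the direction of transcription, with bars for the peaks and black ticks for the summits. The 3 lists overlap at CUL3, RBX1 and NFE2L1, the ACTL6A and NRF2 peaks of NFE2L2 lie on opposite sides of the start, and the summits of the 3 lists in intron 1 of MAFK lie 2445 to 2779 bp downstream.

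The 3 small MAF genes, which encode the DNA-binding partners of NRF2, had BRG1 and neither of the other antibodies at a start. At MAFG (chr17:81918270-81927735, minus strand) BRG1 peaks lay 262 bp and 965 bp upstream of the start, with 53 fragments against 7.27 (rank 4832) and 35 against 7.56. No ACTL6A or NRF2 peak lay in its 29.5 kb window. Of the other 6 BRG1 peaks of that window, 3 were at the starts of PCYT2, SIRT7 and PYCR1. At MAFF (chr22:38200767-38216507, plus strand) a BRG1 peak lay over the start, with its summit 24 bp downstream, 29 fragments against 2.99 and rank 8672. A higher BRG1 peak lay beyond the 3′ end and away from any start, 16704 bp downstream, with 42 fragments against 4.74 and rank 5577. The single NRF2 peak of MAFF was in intron 1, 5869 bp downstream, with 17 fragments against 4.47 and rank 7402. It overlapped no BRG1 peak, the only NRF2 peak of the 10 genes that did not.

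At MAFK, as at MAFF, the highest BRG1 peak lay away from any start. It was 9882 bp upstream, with 33 fragments against 2.82 and rank 6128. The gene is on chr7:1530702-1543043 (plus strand). Its 1 BRG1 peak at a start was the lowest of the 10 genes, with 20 fragments against 5.08, rank 27326 and its summit 981 bp downstream of the MANE start. The 8 other BRG1 peaks of the window were all away from any start. In intron 1 all 3 antibodies had a peak in one stretch, with the ACTL6A summit 2445 bp, the BRG1 summit 2576 bp and the NRF2 summit 2779 bp downstream of the start. These peaks had 8 fragments against 0.995, 29 against 7.19 and 21 against 5.31. With starts widened to 3 kb, MAFK therefore joined the genes with all 3 antibodies. The next BRG1 peak in the intron, 3305 bp downstream with 31 fragments against 7.42, held an ARE core 21 bp from its summit and a TGAGTCA 5 bp from it. It is shown on the plus strand as the core nearest to a BRG1 summit within a small MAF gene.
MAFK at chr7:1533984-1534072: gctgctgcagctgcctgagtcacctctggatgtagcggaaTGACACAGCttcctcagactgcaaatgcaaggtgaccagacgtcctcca

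BACH1, the repressor that competes with NRF2, had BRG1 at its start and no NRF2 peak in its 457 kb window. It lies on chr21:29194071-29630751 (plus strand). The BRG1 peak over the MANE start had its summit 4 bp upstream, 17 fragments against 1.74 and rank 15430, and 2 more, with 13 and 12 fragments, had summits 505 bp and 1266 bp downstream. It held a TGAGTCA 45 bp upstream of the start and an ARE core 80 bp downstream of it. The first is shown, on the plus strand, because it lies in the start peak of the competing repressor. The 2 ACTL6A peaks were far upstream inside the annotated gene, and the one 102384 bp upstream (6 fragments against 0.21) lay in a BRG1 peak with 11 fragments against 0.504 and had a TGAGTCA 3 bp from its summit. By rank the highest BRG1 peak of the window was not at a start. It lay 201107 bp downstream of the MANE start, with 11 fragments against 0.364 and rank 13090.
BACH1 at chr21:29298834-29298920: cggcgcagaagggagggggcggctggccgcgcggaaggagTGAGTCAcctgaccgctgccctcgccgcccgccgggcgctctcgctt

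Within each list the start peaks of the 10 genes were ordered by rank. For BRG1 the order from the top was NFE2L1 at 1.25% of the list, CUL3 at 2.7%, RBX1 at 6.43%, MAFG at 9.9%, SQSTM1 at 10.9%, NFE2L2 at 11.8%, MAFF at 17.8%, KEAP1 at 24.8%, BACH1 at 31.6% and MAFK at 56%. The median over the 12512 genes with a BRG1 start peak was 18.8%, so 7 of the 10 genes ranked above it. By fold enrichment the median of the 10 genes was lower than that of all these genes, 7.38 against 8.84. MAFG (6.53), SQSTM1 (6.15) and MAFF (7.51), above the median by rank, were below it by fold. The median number expected at the summit was 2.79 for the 10 genes and 1.5 over all. For NRF2 the order was NFE2L1 at 8.33%, RBX1 at 8.34%, CUL3 at 19.6%, NFE2L2 at 37.7%, SQSTM1 at 51.5% and KEAP1 at 57.7%, against a median of 41.8% over 5541 genes. For ACTL6A it was NFE2L1 at 2.58%, RBX1 at 2.64%, CUL3 at 5.26% and NFE2L2 at 19.5%, against 20.7% over 7578 genes. The first 4 places for NRF2 were held by the 4 genes that also had ACTL6A, and the 2 genes with NRF2 but no ACTL6A came last.

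**Figure D3:**
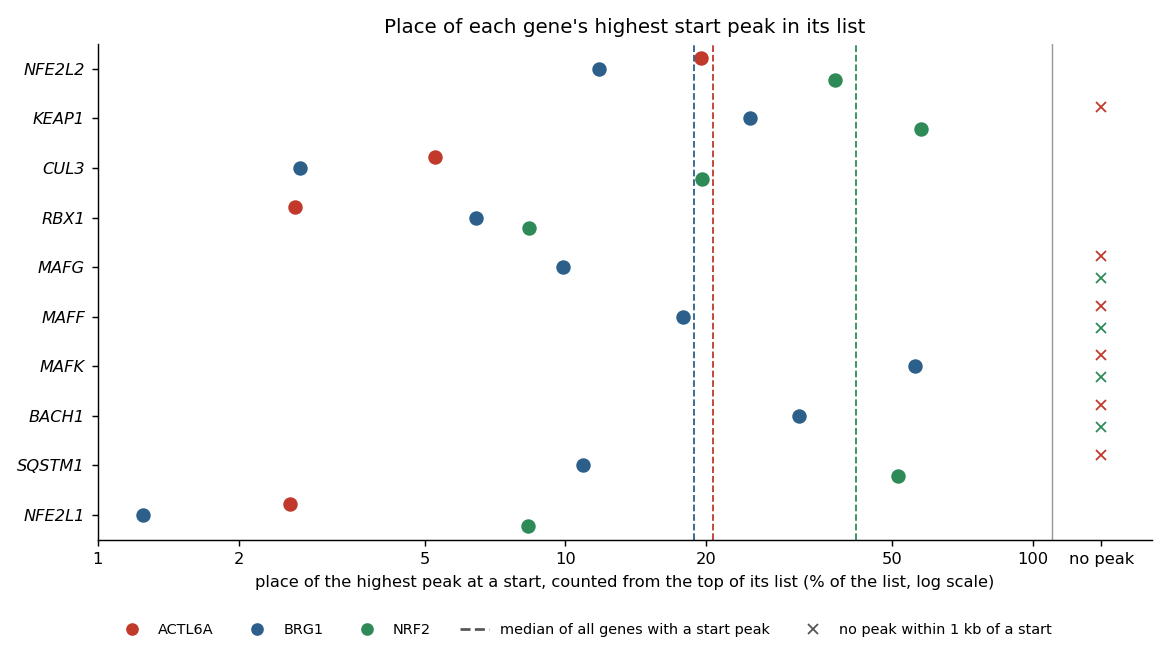
Place of each gene's highest start peak within its list, as a percentage of the list counted from the top on a log scale, with crosses for genes with no peak within 1 kb of a start and dashed lines at the median of all genes with a start peak. NFE2L1, RBX1, CUL3 and NFE2L2 lie left of the medians in all 3 lists, and KEAP1, BACH1 and MAFK lie right of the BRG1 median of 18.8%.

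Neighbours in these orders had fragment counts with overlapping intervals. For NRF2 the intervals were 30.3 to 56.8 at NFE2L1, 25.2 to 49.8 at RBX1, 14.6 to 34.5 at CUL3, 11.4 to 29.7 at NFE2L2, 20.2 to 42.8 at SQSTM1 and 9.9 to 27.2 at KEAP1. NFE2L1 and KEAP1, at the ends of the order, did not overlap. For ACTL6A the interval of NFE2L2, 4.8 to 18.4, lay below that of NFE2L1, 20.2 to 42.8, and overlapped those of CUL3 (12.2 to 30.9) and RBX1 (15.4 to 35.7). The place by q-value and the raw count can part, since SQSTM1 had more NRF2 fragments than CUL3 but also 8.77 expected against 2.72. For BRG1, the expected number at the highest start peak was 7.27 at MAFG and 7.79 at SQSTM1, against a median of 1.5 over all genes with a BRG1 start peak.

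**Figure D4:**
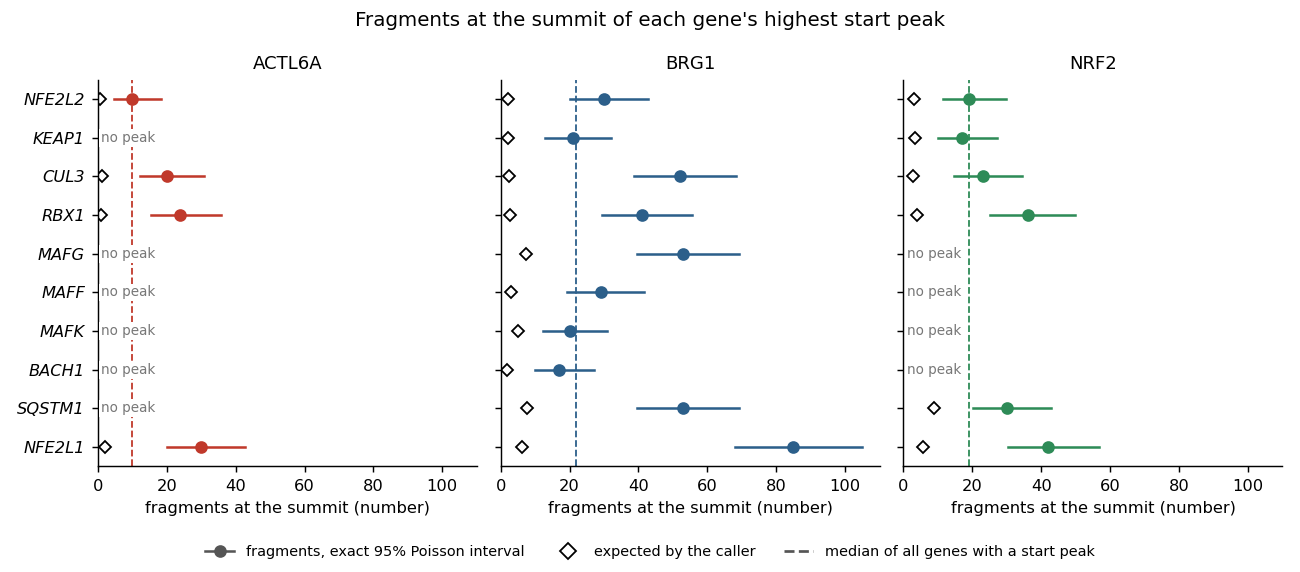
Fragments at the summit of each gene's highest start peak in the ACTL6A, BRG1 and NRF2 lists (circles, with exact 95% Poisson intervals), the number the caller expected there (diamonds) and the median count of all genes with a start peak (dashed). NFE2L1 has the highest count in each panel, 30, 85 and 42, and every circle lies right of its diamond.

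How often a gene had ACTL6A or NRF2 at a start fell with the rank of its BRG1 start peak. Of the 3661 genes whose highest BRG1 start peak was in the top 10% of that list, 85.5% had ACTL6A and 73.6% had NRF2 at a start. In the next 10% these shares were 67.3% and 50.6%, then 51.6% and 34.2%, then 36.8% and 23.4%, and between 50% and 60% they were 25.9% and 10.2%. CUL3, RBX1 and NFE2L1, in the top band, had both. MAFG was in the same band and had neither, unlike most genes there. At 9.9% it lay next to the edge of the second band, where the shares were lower. Its BRG1 fold enrichment of 6.53 was below the median of 8.84 over all genes with a BRG1 start peak. NFE2L2, MAFF and SQSTM1 were in the second band with both, neither and NRF2 alone. KEAP1, in the third, had NRF2 without ACTL6A, and BACH1 and MAFK, in the fourth and sixth, had neither.

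**Figure D5:**
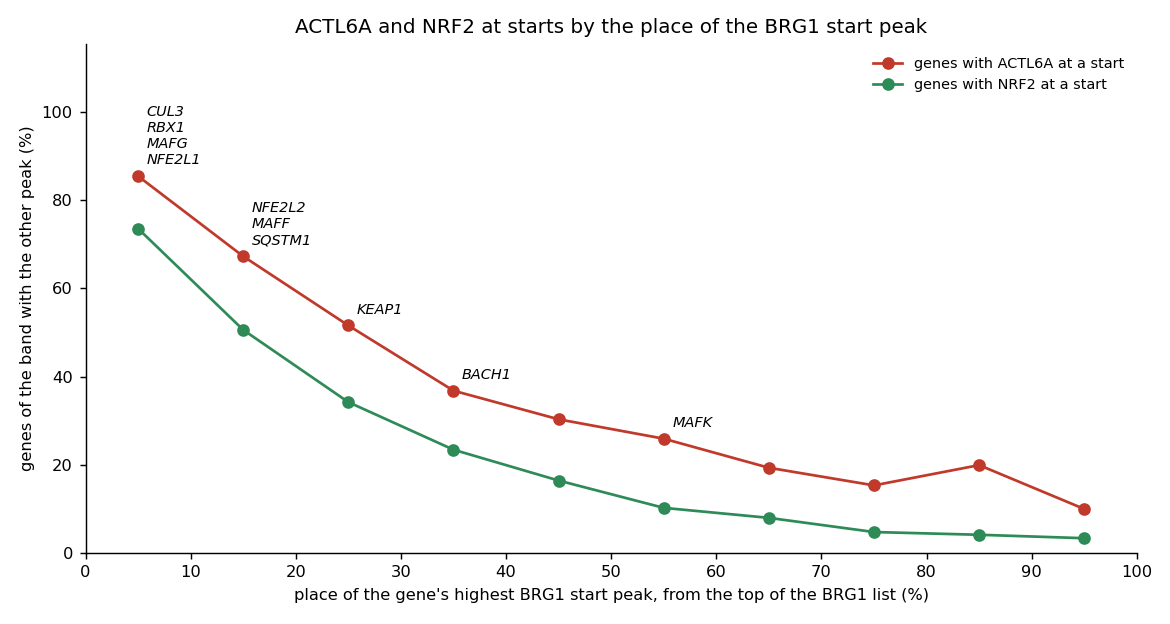
Share of genes with ACTL6A (red) or NRF2 (green) at a start, by the place of the gene's highest BRG1 start peak in bands of 10% of the BRG1 list, with the names of the 10 genes at their bands. The shares fall from 85.5% and 73.6% in the top band to 25.9% and 10.2% in the band that holds MAFK.

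Of the 16 ACTL6A peaks over the 10 genes, 10 (62.5%) shared at least 1 base with a BRG1 peak, against 49.8% of the whole ACTL6A list. All 5 at a start did, with 15 to 678 bp between summits. Of the 10 NRF2 peaks, 9 (90%) overlapped BRG1, against 66.2% of the NRF2 list, and 5 ACTL6A peaks (31.2%) overlapped NRF2, against 20% of the ACTL6A list. Seen from the BRG1 side, 9 of 57 peaks (15.8%) overlapped ACTL6A, below the 24.1% of the whole BRG1 list, and 12 (21.1%) overlapped NRF2, against 13.3%. A requirement that at least 50% of both peaks be shared left 6, 5 and 2 of the overlaps of ACTL6A with BRG1, NRF2 with BRG1 and ACTL6A with NRF2.

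The ARE core was present in 4 of the 10 NRF2 peaks, 12 of the 57 BRG1 peaks and 2 of the 16 ACTL6A peaks. In the whole lists it was in 22.7% of NRF2 peaks, 16.1% of BRG1 peaks and 11.9% of ACTL6A peaks, in the order of their median widths of 474, 232 and 206 bp. Within 100 bp of the summit it was in 1 of the 10 NRF2 peaks (10%), against 9.66% of the list, in 9 of the 57 BRG1 peaks, against 11.5%, and in 1 of the 16 ACTL6A peaks, against 9.88%. In these windows of equal width the core was thus no more frequent in the NRF2 list than in either other list. The 10 genes had 16 core sites in their peaks or start windows, of which 15 lay in BRG1 peaks, 7 in NRF2 peaks and 2 in ACTL6A peaks. The 7 in NRF2 peaks were the 2 each of NFE2L2, KEAP1 and SQSTM1 and the 1 of RBX1, all also in a BRG1 peak. CUL3 and NFE2L1, with 2 of the 3 highest NRF2 start peaks, had no core in them. In the window from 500 bp upstream to 100 bp downstream of the MANE start, RBX1, MAFF, MAFK, BACH1 and SQSTM1 had a core, 5 of 10 against 23.5% of 19061 such windows. With an A or G required before the core, 3 of 10 had one, against 12.3%. A match shows only that these letters are present and is not a bound site.

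Among 28 further genes of the pathway, 27 had BRG1 at a start, 19 had ACTL6A and 18 had NRF2, and all 18 with NRF2 had all 3. These are 96.4%, 67.9% and 64.3%, beside the shares of 63.5%, 38.5% and 28.1% over all genes. The 28 were listed with earlier results of these data known, and no set was tested. Of 5 genes of cullin ligases and their cycle (CAND1, NEDD8, UBE2M, DCUN1D1 and RNF7), 4 had all 3 antibodies. So did 6 of 7 genes for degradation of NRF2 without KEAP1 (BTRC, FBXW11, GSK3A, GSK3B, CUL1, SKP1 and SYVN1) and 3 of 3 that process NFE2L1 (DDI2, NGLY1 and VCP). Of 5 genes whose products bind KEAP1 or SQSTM1 (DPP3, PALB2, PGAM5, AMER1 and TRIM21) 2 had all 3, and of 5 coactivators or repressors of NRF2 (CREBBP, EP300, CHD6, MED16 and RXRA) 3 did. The 3 relatives NFE2, NFE2L3 and BACH2 had BRG1 and neither ACTL6A nor NRF2, like BACH1 and the small MAF genes. DCUN1D1, SKP1, PGAM5, TRIM21 and MED16 of this list had the same pattern, as did 21.1% of all genes. The BRG1 start peaks of NFE2, NFE2L3 and BACH2 lay at 57.2%, 54% and 34.7% of the list. In those bands 25.9% to 36.8% of genes had ACTL6A and 10.2% to 23.4% had NRF2 at a start. RXRA, which encodes a nuclear receptor that can repress NRF2, was the gene without BRG1 at a start. The highest NRF2 start peaks of this list were at CAND1, a cullin exchange factor (67 fragments against 5.83, rank 248), at GSK3B, the kinase that marks NRF2 for β-TrCP (44 against 4.89, rank 562), and at EP300, an acetyltransferase (36 against 3.22, rank 611). All 3 ranked above NFE2L1, the first of the 10 genes.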

How the data were processed

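Peaks of 5 CUT&Tag libraries of SNU638 cells were used as deposited. The authors trimmed paired-end reads and aligned them with BWA, and MACS2 was their caller, with a q-value threshold of 0.05. The submitters' processing notes also name fastp 0.23.0, HOMER 4.11, FastQC and deepTools, and the labels give the build as hg38. The control given to the caller is not given in the sources used here. As deposited, fold enrichment is the ratio of fragments observed to fragments expected after 1 is added to each, and the −log10 p and −log10 q columns were deposited as the caller wrote them. Each antibody had 1 library here, and the 2 IgG libraries were kept apart.

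Peak positions were set against GENCODE release 44 (GRCh38). Fragments at a summit were taken as the integer that matched fold and p-value together, with a tolerance of 0.001 in −log10 p, and 99.4% to 100% of peaks per list had one. Intervals of these counts are exact Poisson intervals (95%). ARE cores were read from GRCh38. The 10 genes, the list of 28 and the tests of position were chosen with earlier results of these data known, and the bands of BRG1 rank and TGANTCA were added after values had been seen. All 10 genes are named. Of the 28, those without BRG1 at a start and the 3 with the highest NRF2 start peak were described singly. A neighbouring gene is named where a peak lies at its start. The routines were tested on simulated data with known fragments, start peaks and motifs. Software was samtools 1.23.1, pysam 0.24.0, SciPy 1.17.1, pandas 2.3.3, matplotlib 3.10.9 and NumPy 2.4.6 under Python 3.11.15.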

Additional observations from a re-analysis of the deposited data

How the results depend on the processing

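The counts were recomputed with other windows, distances, thresholds, overlaps and motifs, and 27 of 44 values stayed within 1.5-fold. The 12 that left out peaks shared with IgG, from both libraries or either one, could not change, since no peak of these genes touched an IgG peak. With 50 kb to each side the genes held 37 ACTL6A, 120 BRG1 and 17 NRF2 peaks. Where −log10 q had to reach 5 they held 5 ACTL6A and 5 NRF2 peaks, and in the highest 5000 peaks of each list 4 ACTL6A, 5 BRG1 and 6 NRF2 peaks. BRG1 was then at a start of 4 genes (CUL3, RBX1, MAFG and NFE2L1). With at least 50% of both peaks shared, 6 ACTL6A and 5 NRF2 peaks overlapped BRG1 and 2 ACTL6A peaks overlapped NRF2, and with −log10 q of 5 or more these were 5, 5 and 3. The ARE core was in 18 member peaks, in 37 as TGANNNNGC and in 11 within 100 bp of a summit. Genes with all 3 antibodies at a start numbered 3 to 5 over these settings, and NFE2L2 was not among them within 250 bp or in the highest 5000 peaks. NRF2 was no longer at a start of KEAP1 in the highest 5000 peaks, nor of KEAP1 and SQSTM1 with −log10 q of 5 or more. The MANE transcript with 10 kb, chosen after seeing the data, gave 11, 45 and 8 peaks. No paired analysis was possible because 1 library was made per antibody. Depth limits what can be said where no peak was called, since the median ACTL6A peak rests on 6 fragments.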

Other observations

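A second motif, TGANTCA, the form shared by AP-1 and MAF-type elements, was counted after values had been seen and is given as a description. It reads the same on both strands in its fixed bases and was counted once per site. It was in 14 of the 57 BRG1 peaks over the 10 genes (24.6%, against 15.1% of the BRG1 list), 3 of 16 ACTL6A peaks (18.8%, against 8.8%) and 1 of 10 NRF2 peaks (10%, against 10.1%). The 3 ACTL6A peaks were those in intron 13 of CUL3, 9991 bp upstream of MAFK and 102384 bp upstream of BACH1, all away from a start and all overlapping BRG1 without NRF2. In them the motif lay 42, 25 and 3 bp from the ACTL6A summit. The 1 NRF2 peak was that of SQSTM1, where it is part of both ARE cores.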
